A study of Mus musculus with 12 samples.

Results

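The Ly6 genes encode small cell-surface proteins, among them Ly6C, the protein by which the monocytes of this study were sorted. The 6 genes described here, Ly6c2, Ly6c1, Ly6a, Ly6g, Ly6e and Ly6d, were taken by symbol from the 55487 genes of the count table. All 6 passed the filter on low counts, Ly6d through its bone marrow libraries. RNA-seq was done on 12 bulk libraries of mouse monocytes labelled Ly6C+, in 4 groups of 3. The study's title names the transcription factors cMaf and Zeb2 in early blood formation.

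The BM group was bone marrow of genotype WT, with no age in the labels. The KO group was fetal liver of genotype KO at embryonic stage E13.5, and the deleted allele is not given in the labels. The Mixed group was fetal liver of genotype WT at E15.5, and what its name refers to is not given either. The WT group was fetal liver of genotype WT, with WT 1 at E13.5 and WT 2 and WT 3 at E15.5. KO was therefore matched in age by 1 WT library. The text on the series design speaks of other cells, tissue-resident macrophages, and of a line called Z165KO. Whether the 3 libraries of each group were made from different animals is not in the labels, so every p-value below measures the spread between these samples alone, and that spread may be technical.

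Total counts ran from 17384956 to 24473502 per library. Zeb2, encoding a zinc-finger repressor, was at 20.1 to 23.8 counts per 1e+06 counts (CPM) in KO, against 141 to 165 CPM in WT. It was 6.75-fold lower in KO than in WT. The summed level of 14 classical monocyte markers was 38352 to 39124 CPM in BM, 8727 to 9834 in KO, 14983 to 15081 in Mixed, against 11632 to 13056 in WT. All 14 were detected in every group, and all groups shared the sort on Ly6C.

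Proteins of the Ly6 family fold into finger-like loops held by disulfide bonds, and most are tied to the outer membrane leaflet by a glycosylphosphatidylinositol (GPI) anchor. In mice they serve as markers of blood cells. Ly6C is high on classical inflammatory monocytes, Ly6G is high on neutrophils, and the protein of Ly6a, known as Sca-1, marks blood stem cells and is induced by interferons. Ly6e is also induced by interferons and acts in antiviral defence, and Ly6d marks lymphoid progenitors committed to the B lineage.

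All 6 genes lie on chromosome 15 within 397.1 kb (GRCm38, the assembly that mm10 denotes, GENCODE gene models). Ly6d (ENSMUSG00000034634) spans chr15:74762056-74763620 and Ly6e (ENSMUSG00000022587) spans chr15:74955051-74959905. The other 4 lie within 164.2 kb, with Ly6a (ENSMUSG00000075602) at chr15:74994877-74998031, Ly6c1 (ENSMUSG00000079018) at chr15:75044018-75048830, Ly6c2 (ENSMUSG00000022584) at chr15:75108158-75111970 and Ly6g (ENSMUSG00000022582) at chr15:75155240-75159126. Ly6e and Ly6g are on the plus strand and the other members on the minus strand. No member overlaps another gene model. Ly6c2 and Ly6c1 are near copies, with 97.7% identity over coding sequences of 396 bases each. Ly6c2 shares 81.7% of coding bases with Ly6a and 78.3% with Ly6g, while Ly6e and Ly6d share 50.0 to 53.9% with any other member.

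RefSeq windows on GRCm38.p6 were matched for 3 of the 6 members, Ly6c2, Ly6c1 and Ly6g. They are shown so that the starts of the near copies Ly6c2 and Ly6c1 can be set beside that of Ly6g, whose pattern across the groups was another. Each line gives the 250 bases before the most upstream RefSeq start on the gene's own strand, 5′ to 3′. Capitals mark GAGGAAGT, a form of the site bound by the myeloid factor PU.1. The windows are chr15:75111972-75112221 (minus strand) for Ly6c2, chr15:75048838-75049087 (minus strand) for Ly6c1 and chr15:75155011-75155260 (plus strand) for Ly6g.
Ly6c2: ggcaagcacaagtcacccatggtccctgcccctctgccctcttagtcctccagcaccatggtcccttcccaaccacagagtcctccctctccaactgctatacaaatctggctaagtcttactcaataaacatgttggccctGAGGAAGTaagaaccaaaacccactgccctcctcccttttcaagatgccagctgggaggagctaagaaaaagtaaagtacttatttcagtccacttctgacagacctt
Ly6c1: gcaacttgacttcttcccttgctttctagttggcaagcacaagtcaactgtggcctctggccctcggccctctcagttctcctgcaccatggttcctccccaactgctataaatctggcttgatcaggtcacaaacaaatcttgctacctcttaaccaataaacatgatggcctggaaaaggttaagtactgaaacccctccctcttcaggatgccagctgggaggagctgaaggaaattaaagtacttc
Ly6g: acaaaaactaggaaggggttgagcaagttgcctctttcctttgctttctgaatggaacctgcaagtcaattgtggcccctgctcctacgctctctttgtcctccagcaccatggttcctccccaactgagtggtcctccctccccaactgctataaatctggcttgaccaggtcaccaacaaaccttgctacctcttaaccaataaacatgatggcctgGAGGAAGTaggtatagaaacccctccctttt
GAGGAAGT, searched on both strands, starts 108 bases before the start in Ly6c2 and 31 bases before it in Ly6g. It has no match in the Ly6c1 window and occurs in 2.44% of the 32817 mouse windows of this length. The bases just before it are alike in the Ly6c2 and Ly6g windows, and the distances rest on where RefSeq places each start. By GENCODE, Ly6g begins at 75155240, inside its window. The core of the interferon-stimulated response element occurs in 2.97% of windows, TTCNNNGAA, the gamma-activated site, in 7.01%, and CAGGTG, an E-box of the kind Zeb factors bind, in 17.2%. These 3 motifs, searched on both strands, have no match in the windows shown. By local alignment the windows of Ly6c1 and Ly6g are 75.1% identical over 229 columns, those of Ly6c2 and Ly6c1 72.2% over 227, and those of Ly6c2 and Ly6g 66.7% over 198.

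Ly6c2, which encodes the main Ly6C protein of monocytes, was higher in BM, KO and Mixed than in WT. Its level was 1907, 1973 and 1993 CPM in BM 1 to 3, then 1536, 1684 and 1372 in KO 1 to 3, then 695, 698 and 704 in Mixed 1 to 3, and 549, 538 and 490.3 in WT 1 to 3. The 4 groups did not overlap, with BM on top and WT lowest, and the Mixed libraries were the tightest. Means were 1958 ± 45.1 CPM in BM, 1531 ± 156 in KO, 699 ± 4.50 in Mixed and 526 ± 31.1 in WT (SD, n = 3 each). By edgeR's quasi-likelihood test with Benjamini-Hochberg adjustment over 14618 genes, Ly6c2 was 2.91-fold higher in KO than in WT (log2 1.54, SE 0.0612, adjusted p = 9.99e-15). It was 3.72-fold higher in BM than in WT (log2 1.90, SE 0.0618, adjusted p = 1.05e-16) and 1.33-fold higher in Mixed than in WT (log2 0.41, SE 0.0602, adjusted p = 0.000406). BM exceeded KO by 1.28-fold (adjusted p = 2.19e-05). The cells had been chosen by the protein of this gene, and where the gate was set is not given in the labels. In bulk RNA a higher share of cells with the transcript and more transcript per cell cannot be told apart, here and for every gene below. The WT library of the same embryonic day as KO, WT 1, had 549 CPM, below every KO library, and with embryonic day as a covariate the KO difference was 1.498 on the log2 scale (adjusted p = 2.87e-08).

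**Figure D1:**
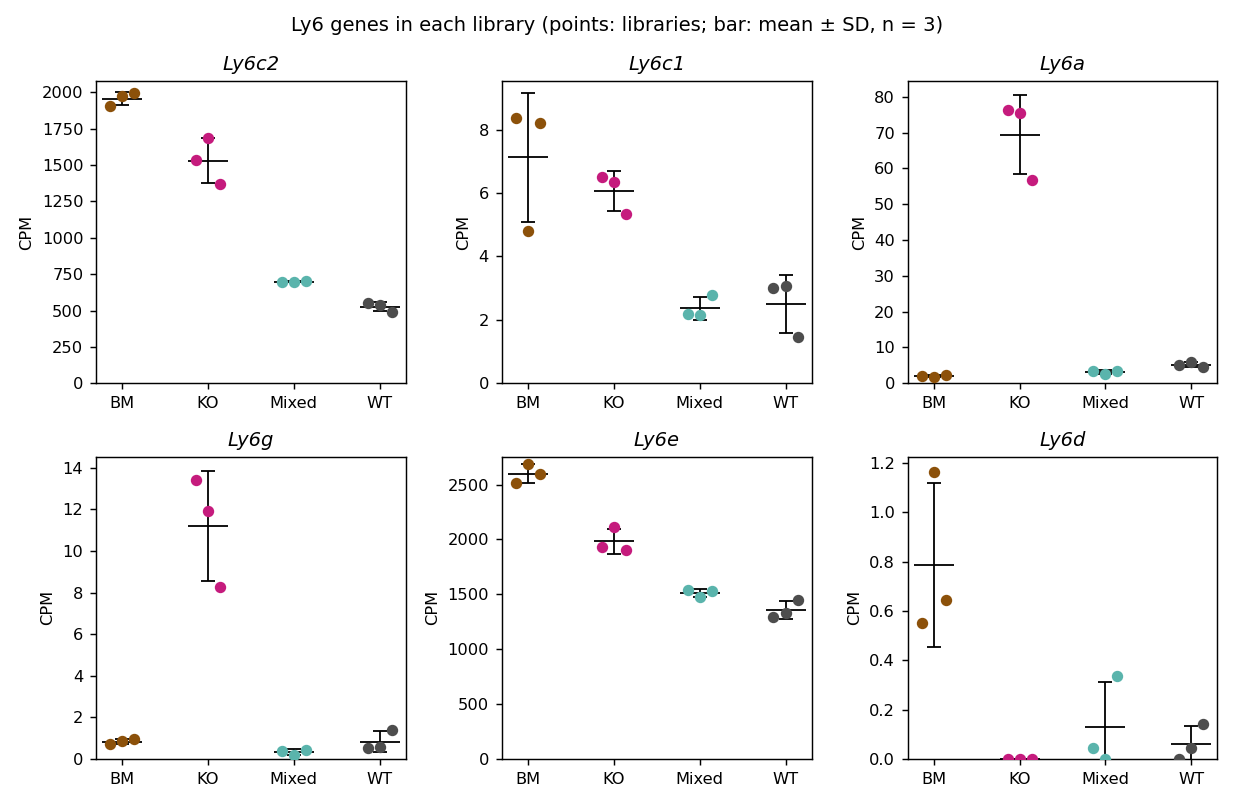
CPM of the 6 Ly6 genes on the vertical axis, each panel with its own scale from 0, in the BM, KO, Mixed and WT libraries. Points are single libraries, the horizontal mark is the mean and the bar is ± SD (n = 3). Ly6a and Ly6g stand high in KO, at 56.8 to 76.2 and 8.28 to 13.4 CPM, while Ly6c2 and Ly6e step down in the order BM, KO, Mixed, WT.

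Ly6c1, the near copy of Ly6c2 and known in mice from endothelial and T cells, was higher in BM and KO than in WT. It had 8.38, 4.79 and 8.21 CPM in BM 1 to 3, then 6.52, 6.34 and 5.34 in KO, then 2.18, 2.14 and 2.78 in Mixed, and 3.00, 3.07 and 1.45 in WT. BM and KO overlapped, Mixed and WT overlapped, and every BM and KO library was above every Mixed and WT library. Ly6c1 was 2.41-fold higher in KO than in WT (log2 1.27, SE 0.257, adjusted p = 0.000444) and 2.83-fold higher in BM than in WT (log2 1.501, SE 0.256, adjusted p = 2.79e-05). The difference of BM from KO did not pass (log2 0.23, 95% interval -0.26 to 0.72, adjusted p = 0.406), nor did that of Mixed from WT (log2 -0.08, 95% interval -0.65 to 0.49, adjusted p = 0.903). With embryonic day as a covariate, the log2 difference of Ly6c1 between KO and WT fell to 1.02 and passed only narrowly (adjusted p = 0.0471). In that fit Ly6c1 no longer passed between KO and Mixed (adjusted p = 0.197, against 0.000249 without it).

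How the authors' counting divided reads within the pair limits the Ly6c1 values. Among all genes of the deposited counts, 28.5% of nonzero values were not whole numbers (tolerance 1e-06). The counts of Ly6c2 and Ly6c1 were not whole in 12 of 12 libraries, those of Ly6a in 4 and those of Ly6g, Ly6e and Ly6d in none. Ly6c1 and Ly6c2 summed to a whole number in 10 of 12 libraries, within 0.005. In the other 2, KO 1 and WT 2, the sum became whole once Ly6a was added. In BM 1 and KO 2 it was no longer whole with Ly6a, so the sum with Ly6a was again whole in 10 of 12. Of all 50-base stretches of the Ly6c1 transcripts, 21.5% also occur in Ly6c2 and 11.1% in Ly6a, while Ly6g shares none with the other 5 members. Ly6c1 took 0.242 to 0.437% of the pair's counts in BM, 0.375 to 0.422% in KO, 0.306 to 0.393% in Mixed, against 0.295 to 0.567% in WT. These ranges overlapped, so the share of Ly6c1 did not separate the groups. Whether the Ly6c1 reads belong to that gene was not tested. The summed pair was 1.54 higher in KO than in WT on the log2 scale (adjusted p = 1.11e-14), as was Ly6c2 alone. With Ly6c1 at no more than 0.567% of the pair, the sum has to follow Ly6c2. It cannot show how reads were divided.

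Ly6a, encoding Sca-1, was high in KO and in no other group. It had 76.2, 75.4 and 56.8 CPM in KO 1 to 3, against 5.08, 5.89 and 4.42 CPM in WT 1 to 3. It had 2.03, 1.77 and 2.43 CPM in BM 1 to 3 and 3.43, 2.55 and 3.42 in Mixed 1 to 3. The KO libraries stood far above all others, the groups did not overlap, and BM was lowest. Ly6a was 13.49-fold higher in KO than in WT (log2 3.75, SE 0.143, adjusted p = 5.72e-15), and with embryonic day as a covariate the log2 difference was 3.79. It was 2.47-fold lower in BM than in WT (log2 -1.31, SE 0.187, adjusted p = 2.88e-06) and 33.4-fold lower in BM than in KO (log2 -5.06, SE 0.161, adjusted p = 7.16e-17). Mixed was 1.64-fold lower than WT (adjusted p = 0.0132), a call that ended without Mixed 2 (adjusted p = 0.0614), without WT 2 (0.0787), with embryonic day as a covariate (0.0878) and with limma-voom (0.131). BM was 1.51-fold lower than Mixed (adjusted p = 0.0150), and this ended without BM 2 (0.0638), Mixed 1 (0.0596) or Mixed 3 (0.0559) and with limma-voom (0.158).

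Interferon genes, to which Ly6a and Ly6e are known to respond, moved with some of these differences. Of 24 receptors, signalling genes and induced genes, 20 were higher and 1 lower in KO than in WT, where 18.2% of all tested genes were called higher and 19.9% lower. Their median log2 difference was 1.23, against -0.03 over all tested genes. Usp18, which limits interferon signalling, had 145 ± 31.7 CPM in KO and 30.4 ± 1.68 in WT (4.77-fold), and Ifit2, an antiviral RNA-binding protein, had 73.4 ± 12.6 CPM in KO and 16.1 ± 1.26 in WT (4.55-fold). In BM 22 of the 24 were higher than in WT, where 32.1% of all tested genes were called higher, with a median of 1.19 against 0.00 over all genes. The summed level of the list was 3461 to 3582 CPM in BM, 3114 to 3495 in KO, 2009 to 2015 in Mixed, against 1898 to 1935 in WT. BM and KO overlapped in this sum, but single genes differed. Of the 24, 7 were higher and 7 lower in BM than in KO, beside 31.8% and 32% of all tested genes. Between Mixed and WT, 1 was higher and 3 lower in Mixed, beside 4.21% and 3.87%. Ly6a differed between BM and KO by 33.4-fold. The part of the interferon genes in the Ly6 differences was not tested.

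Stem and progenitor cells, the blood cells best known for Sca-1, were covered by 8 markers, of which 6 were tested. Their summed level was 43.8 to 46.2 CPM in BM, 241 to 274 in KO, 556 to 582 in Mixed, against 559 to 604 in WT. Most of these sums was Cd34. Without it the other 7 markers summed to 17.2 to 18.4 CPM in BM, 76.2 to 94.2 in KO, 28.3 to 34.7 in Mixed, against 35.1 to 43.5 in WT. The KO range lay below that of WT with Cd34 and above it without, and Ly6a was higher in KO than in WT. Of the 6 tested markers, 1 was higher and 2 lower in KO than in WT, beside 18.2% and 19.9% of all tested genes. Their median log2 difference was -0.84, against -0.03 over all tested genes. Hlf was at 0 in BM. Flt3, a cytokine receptor of progenitors and dendritic cell precursors, was 10.2-fold higher in KO than in WT (66.0 against 6.47 CPM). Flt3 was most of the KO sum without Cd34, so the high sum there is mainly that of this gene and not of the list. Cd34 was 3.07-fold lower in KO than in WT (174 against 535 CPM). Of 6 endothelial markers, 3 were tested and 1, Pecam1, was higher in KO than in WT, with a summed list level of 33.0 to 40.4 CPM in BM, 75.8 to 81.6 in KO, 16.6 to 20.6 in Mixed, against 17.9 to 30.9 in WT. Most of these endothelial sums was Pecam1, at 30.5 CPM in BM, 77.1 in KO, 17.7 in Mixed and 21.3 in WT. Emcn of that list was at 0 in KO and in Mixed. The part of these cells in the Ly6a and Ly6c1 values was not tested.

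Ly6g, the marker gene of neutrophils, was also high in KO. It had 13.4, 11.9 and 8.28 CPM in KO 1 to 3, against 0.502, 0.581 and 1.41 in WT 1 to 3. It had 0.714, 0.839 and 0.943 CPM in BM and 0.366, 0.182 and 0.433 in Mixed. KO did not overlap any group, BM lay within the range of WT, and WT 3 was the highest library outside KO. Ly6g was 13.3-fold higher in KO than in WT (log2 3.73, SE 0.312, adjusted p = 2.96e-09), and 20.3-fold higher once WT 3 was left out. It was 33.8-fold higher in KO than in Mixed (log2 5.08, SE 0.355, adjusted p = 1.64e-10) and 13.3-fold lower in BM than in KO (log2 -3.74, adjusted p = 7.86e-10). With embryonic day as a covariate the differences of KO grew to 4.48 from WT and 6.06 from Mixed on the log2 scale, moves of over 1.5-fold. BM over WT gave a log2 difference of -0.01 (95% interval -0.79 to 0.78, adjusted p = 0.987). Mixed over WT gave -1.35 (95% interval -2.26 to -0.44, adjusted p = 0.0602), which did not pass, and -0.74 without WT 3. BM was 2.54-fold higher than Mixed (adjusted p = 0.0125), which ended without Mixed 2 (adjusted p = 0.0658) and with limma-voom (0.0779). In counts these are small numbers, at 718 over the 3 KO libraries, 50 in BM, 21 in Mixed and 52 in WT.

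Neutrophil markers moved with Ly6g in part. Of 15, 7 were higher and 2 lower in KO than in WT, beside 18.2% and 19.9% of all tested genes. Their summed level was 2440.2 to 2751 CPM in BM, 14015 to 17039 in KO, 9641 to 9850 in Mixed, against 10604 to 13358 in WT, with none at 0. WT 3 was the highest of WT in this sum, as it was for Ly6g. This was not particular to neutrophil markers, since WT 3 was the highest of WT in most of the lists. Among them were the classical monocyte (13056 CPM), endothelial (30.9), stem and progenitor (604) and B-lineage (167) markers. Mmp8, a granule collagenase, had 1033 CPM in KO and 162 CPM in WT (6.36-fold higher), and S100a9, a calcium-binding protein of neutrophils and monocytes, had 4605 CPM in KO and 902 CPM in WT (5.10-fold higher). In BM 10 of the 15 were lower and 3 higher than in WT, beside 31.9% and 32.1% of all genes, with S100a8 at 188 CPM in BM and 3057 CPM in WT, while Ly6g did not pass there. Monocytes and their precursors also express several of these markers. The part of neutrophils in the Ly6g values was not tested.

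Ly6e, an antiviral restriction factor in mice and humans, was higher in BM and KO than in WT. It had 2514, 2683 and 2599 CPM in BM 1 to 3, then 1928.5, 2111 and 1907 in KO, then 1538, 1473 and 1531 in Mixed, and 1289, 1332 and 1444 in WT. The groups did not overlap and stood in the order of Ly6c2, with smaller steps. Ly6e was 1.46-fold higher in KO than in WT (log2 0.55, SE 0.0516, adjusted p = 1.88e-08), 1.92-fold higher in BM than in WT (log2 0.94, SE 0.0519, adjusted p = 7.15e-13) and 1.31-fold higher in BM than in KO (log2 0.39, adjusted p = 8.5e-07). Mixed over WT was 0.16 on the log2 scale (95% interval 0.05 to 0.27), which did not pass (adjusted p = 0.0579). It passed without WT 3 (adjusted p = 0.0149) and without KO 2 (0.0468), a library that enters this comparison only through the shared spread. Tested against a change of 1.5-fold, Ly6e no longer passed between KO and WT.

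Ly6d was close to the limit of detection. Its counts were 10, 25 and 13 in BM 1 to 3, then 0 in each KO library, then 1, 0 and 7 in Mixed 1 to 3, and 0, 1 and 3 in WT 1 to 3. In CPM that is 0.550, 1.17 and 0.645 in BM, with at most 0.337 in Mixed and 0.141 in WT. Every BM library was above every fetal library, and it was through BM that the gene entered the test. Because the filter took the gene in for its high BM values, its differences from BM are given as a description, with no test. The ratio of counts, scaled by library size, was 12.4 for BM over WT (48 against 4 counts, 95% exact interval 4.52 to 47.2) and 6.48 for BM over Mixed (48 against 8 counts, 3.04 to 15.9). Without WT 3, 1 WT count was left and the ratio was 32.3 (5.53 to 1303). Without Mixed 3, 1 Mixed count was left and the ratio was 35.2 (6.02 to 1417). Against KO it was at least 5.61-fold higher in BM, with a floor of 3 counts in each KO library. These intervals and this floor cover counting error only. Between KO and WT no fold is given, since KO had no count and WT lay at or under that floor.

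B-lineage markers, the cells Ly6d is best known from, were detected in all 4 groups. Of 10, 7 were tested. In BM 5 were higher and 2 lower than in WT, where 32.1% of all genes were called higher and 31.9% lower. The 5 include Ebf1, which had no WT count and passed the filter through other groups, so its call is no support. In KO 3 were higher and 1 lower than in WT, where the shares over all genes were 18.2% and 19.9%. Their summed level was 954 to 1091 CPM in BM, 432 to 516 in KO, 164 to 189 in Mixed, against 140.0 to 167 in WT. Ighm, the immunoglobulin heavy chain, had 970.0 CPM in BM, 339 in KO, 91.7 in Mixed and 66.0 in WT. It was most of the sum in BM and KO, so the high sums there are mainly those of this gene and not of the list. Ms4a1, encoding the B-cell protein CD20, had 0.814 CPM in BM, 75.1 in KO and 0.106 in WT, so it was high in the group where Ly6d had no count. It is among the 3 called higher in KO and the 5 called higher in BM. Its KO values took it through the filter and its WT mean was under the limit of detection, so these calls are no support. Igll1 was at 0 in KO, and Ebf1 and Pax5 were at 0 in WT. The part of B-lineage cells in the Ly6d values was not tested.

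Calls were counted over the 5 genes other than Ly6d. In KO over WT, 5 were called higher, beside 18.2% of all tested genes called higher and 38.1% called in either direction. Between Mixed and WT, Ly6c2 was called higher, beside 4.21% of all genes, and Ly6a lower, beside 3.87% (8.07% in either direction). In BM over WT, 3 were called higher and 1 lower, beside 32.1% of all genes called higher and 31.9% lower. With 64% of all genes called there, 4 of 5 is not far from the background. In BM over KO, 2 were higher and 2 lower, beside 31.8% of all genes higher, 32% lower and 63.8% in either direction, again not far from it. In KO over Mixed, 5 were higher, beside 18.2% of all genes higher, 18.5% lower and 36.7% in either direction. In BM over Mixed, 4 were higher and 1 lower, beside 29.5% of all genes higher, 28.9% lower and 58.4% in either direction. The calls of Ly6a and Ly6g in that comparison did not hold in all fits, as given with those genes. The median log2 difference of these 5 was 1.54 for KO over WT, -0.08 for Mixed over WT and 0.94 for BM over WT, against -0.03, -0.01 and 0.00 over all tested genes. The 3 comparisons with WT share its libraries, so their values are set side by side only.

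**Figure D2:**
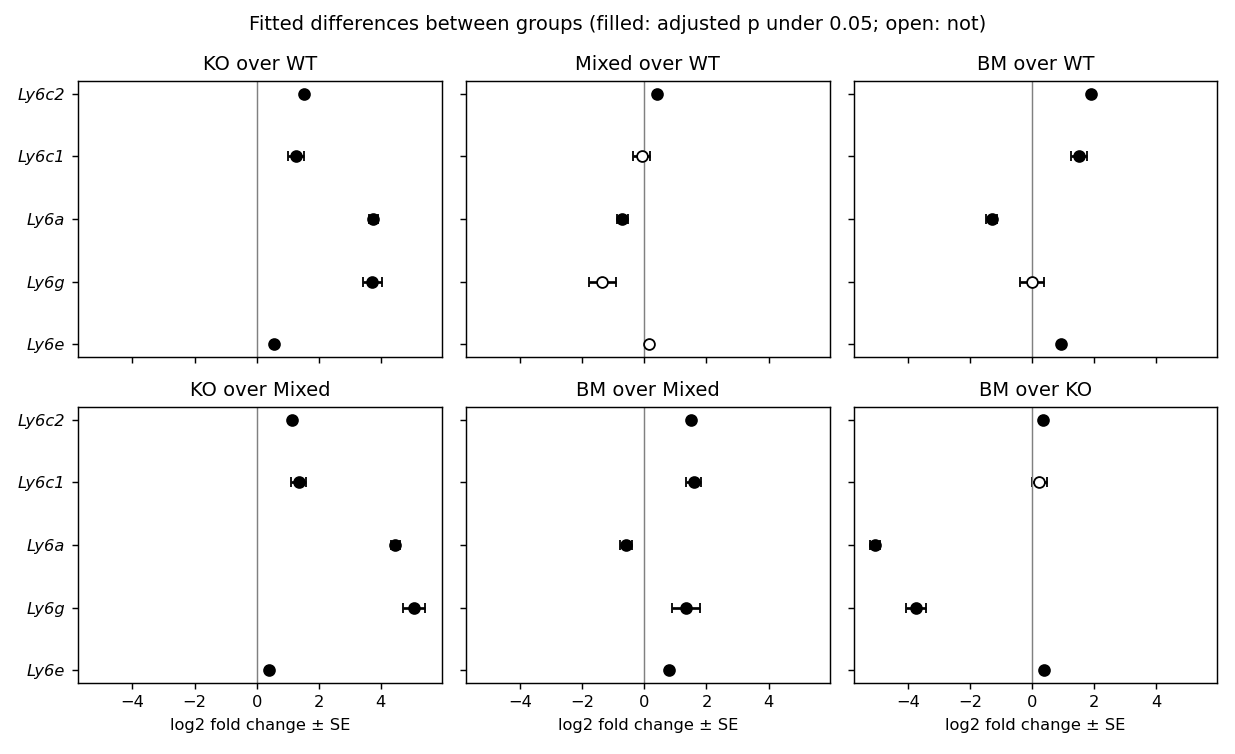
Fitted log2 fold change ± SE of the Ly6 genes other than Ly6d on the horizontal axis, with a panel for each of the 6 comparisons of groups. Filled points passed an adjusted p of 0.05, and open points did not. Ly6a and Ly6g lie to the right in the panels of KO over WT (3.75 and 3.73) and to the left in BM over KO (-5.06 and -3.74).

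On a per-length scale, which allows levels of different genes to be compared, Ly6e and Ly6c2 led in every group. In deposited transcripts per 1e+06 transcripts (TPM), Ly6e averaged 3968 in BM, 2524 in KO, 2157 in Mixed and 1948 in WT. Ly6c2 averaged 3924 TPM in BM, 2567 in KO, 1351 in Mixed and 973 in WT. The 2 genes overlapped in BM and in KO, whereas in Mixed and WT every Ly6e value was above every Ly6c2 value. Ly6a came next in KO at 98.8 ± 15.2 TPM, above Ly6c1 at 21.1 ± 2.01 and Ly6g at 17.7 ± 3.68, which overlapped each other. In BM Ly6c1 came next at 31.5 ± 8.67 TPM, above Ly6a at 3.60 ± 0.652, with Ly6d at 1.77 ± 0.735 and Ly6g at 1.35 ± 0.183 overlapping. In Mixed, Ly6c1 at 10.1 ± 1.82 TPM was above Ly6a at 4.91 ± 0.865, and in WT Ly6c1 at 9.79 ± 3.51 and Ly6a at 8.10 ± 1.38 overlapped.

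**Figure D3:**
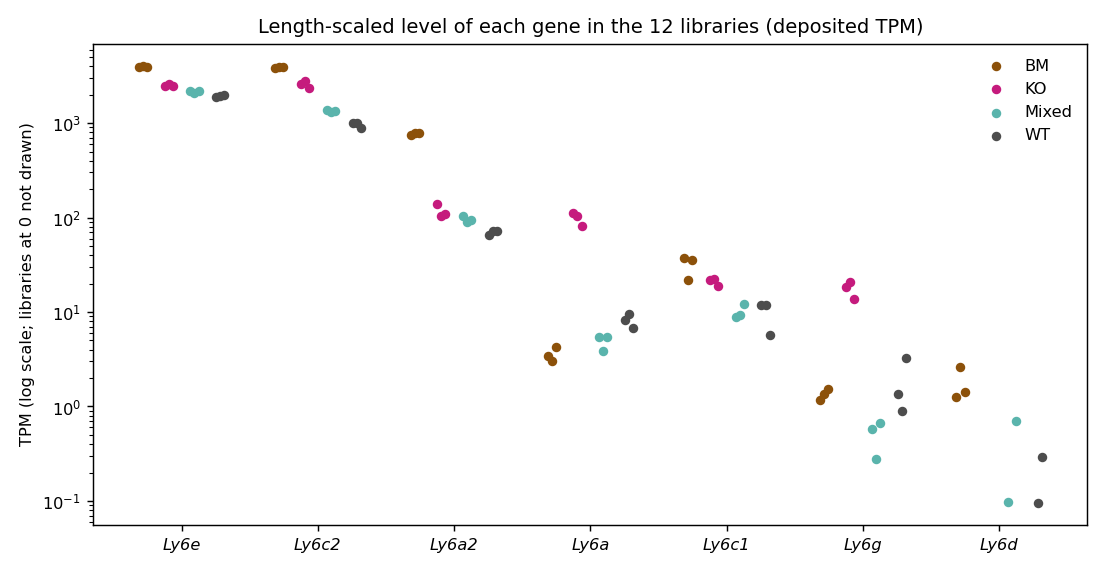
Deposited TPM on a log scale for the 6 Ly6 genes and the neighbour Ly6a2 in the 12 libraries, each point a library, groups from left to right BM, KO, Mixed, WT. Libraries at 0 TPM are not drawn, which for Ly6d leaves no KO point. Ly6e and Ly6c2 lie at 892 TPM or higher in all libraries, and Ly6a ranges from 3.60 TPM on average in BM to 98.8 in KO.

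The patterns over the 12 libraries fell into kinds, described by Pearson's r of log2 CPM. The libraries come in 4 groups of 3, so r mostly compares group means, and it is given as a description. Ly6c2 followed Ly6e with r = 0.963 and Ly6c1 with 0.906, and Ly6a followed Ly6g with 0.918, whereas Ly6a and Ly6e gave 0.006. Among 8030 protein-coding genes of higher level, those most like Ly6c2 were Naaa (0.993), Rnd3 (0.991) and Irgm2 (0.990), the last an interferon-inducible GTPase. Naaa, a lysosomal amidase, averaged 241 CPM in BM, 203 in KO, 91.6 in Mixed and 62.6 in WT. Like Ly6e were H2-T23 (0.997) and S100a6 (0.992), H2-T23 encoding a non-classical MHC class I protein. Most like Ly6a were Ifi211 (0.989), Fchsd2 (0.987) and Il1r2 (0.986), and most like Ly6g were Ifi205 (0.975), Acap1 (0.972) and Mxd1 (0.971). Ifi211 and Ifi205 belong to an interferon-inducible gene family, and Il1r2 is a decoy receptor of interleukin 1. Ly6c1 was most like Snap23 (0.954), Zup1 (0.952) and Oas1a (0.947), and Ly6d was most like C87436 (0.956), Slc10a3 (0.954) and Agpat4 (0.951).

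Relatives outside the 6 genes were taken from a list of 32 genes of the Ly6 and urokinase receptor family, of which 7 were tested. In KO 3 were higher than in WT, beside 18.2% of all genes. In BM 4 were higher and 1 lower than in WT, beside 32.1% and 31.9% of all genes, so that 5 of 7 is near the 64% called in all. The 4 include Lynx1, at 5.62 CPM in BM, 0.287 in KO, 0.214 in Mixed and 0.299 in WT. Like Ly6d, it passed the filter through BM, so its call there is no support. Ly6i, which lies between Ly6e and Ly6a, had 9.53 ± 1.36 CPM in KO and 0.965 ± 0.198 in WT (9.74-fold higher, adjusted p = 1.32e-10). It had 10.04 ± 1.82 CPM in BM (10.3-fold higher than WT, adjusted p = 2.13e-11). Plaur, the urokinase receptor, was 1.45-fold higher in KO and 2.55-fold higher in BM than in WT. Cd177, a neutrophil antigen, had 547 ± 42.0 CPM in BM and 19.2 ± 12.7 in WT (28.3-fold higher).

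The neighbour Ly6a2 was added after its values were seen. It lies between Ly6c2 and Ly6g at chr15:75131377-75135128 and is annotated as a transcribed pseudogene in GENCODE. Ly6a2 averaged 345 ± 14.3 CPM in BM, 62.3 ± 9.45 in KO, 44.7 ± 3.13 in Mixed and 33.3 ± 1.79 in WT, with no overlap between groups. It was 10.4-fold higher in BM than in WT (log2 3.38, SE 0.0891, adjusted p = 3.05e-17) and 1.87-fold higher in KO than in WT (adjusted p = 5.84e-08). Its counts were not whole in 6 libraries. Its window of 250 bases was 96.4% identical to that of Ly6c2 by local alignment, with no match to GAGGAAGT. Neighbouring genes differed in direction. BM over WT was -1.31 on the log2 scale for Ly6a, 1.90 for Ly6c2, 3.38 for Ly6a2 and -0.01, not called, for Ly6g.

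**Figure D4:**
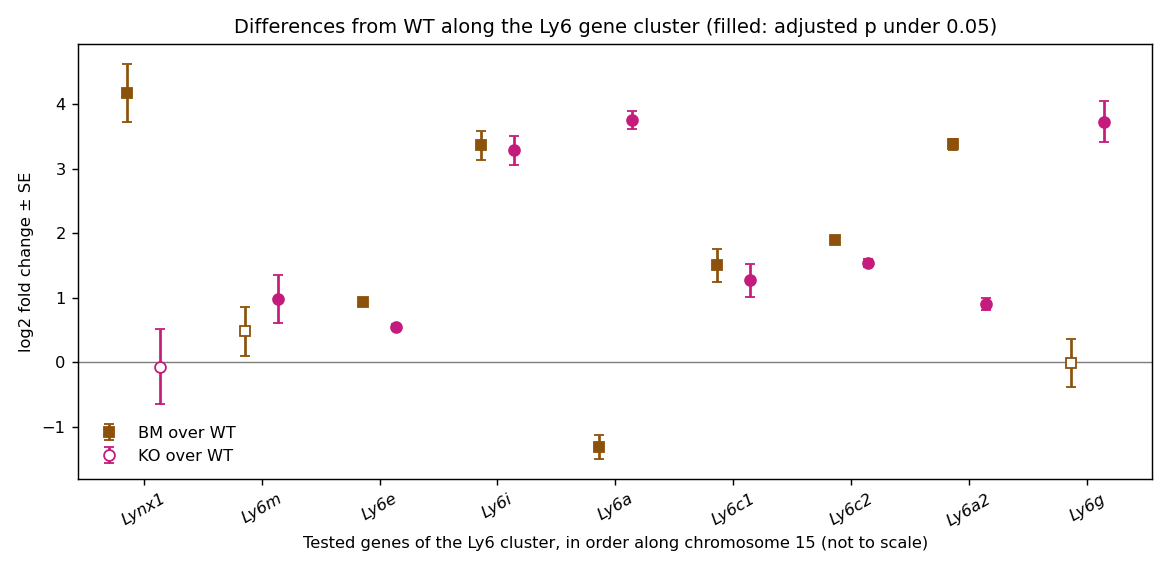
Log2 fold change ± SE on the vertical axis for the tested genes of the Ly6 cluster in their order along the chromosome (not to scale), BM over WT as squares and KO over WT as circles. Filled symbols passed an adjusted p of 0.05, and Ly6d is not drawn. Lynx1 is drawn, though it passed the filter through BM. Ly6i is high in both comparisons (3.36 and 3.28), Ly6a2 mainly in BM (3.38) and Ly6a and Ly6g in KO (3.75 and 3.73).

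Genes of GPI anchor synthesis, which build the membrane anchor of Ly6 proteins, were called in shares like those of all genes. Of 28 tested, 7 were higher and 7 lower in KO than in WT, beside 18.2% and 19.9% of all genes. In BM 10 were higher and 11 lower than in WT, beside 32.1% and 31.9%. Mppe1, which remodels the anchor, was 1.67-fold higher in KO and 3.06-fold higher in BM than in WT. Pigp, a subunit of the first enzyme of the pathway, was 2.07-fold lower in BM than in WT.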

How the data were processed

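Ly6C+ monocyte libraries were compared by their title groups. The tests used estimated counts, which the authors deposited for all libraries in 1 table of genes. Per the submitters' processing notes, the build was mm10 and DRAGEN, STAR, Subread, featureCounts and Salmon were named, with no role or order. TPM were used as deposited by the authors for levels between genes, and the deposited CPM table was not used. Per the labels' protocols, the SMARTer kit was unstranded. Of 55774 table entries, 287 repeats were removed. Counts were rounded to whole numbers, filtered with filterByExpr (minimum count 10, minimum total 15), which left 14618 genes, and scaled by TMM. edgeR's quasi-likelihood test (robust) was fitted with 1 mean for each group over all 12 libraries, two-sided, with Benjamini-Hochberg adjustment, and genes under an adjusted p of 0.05 were called. Intervals of log2 differences are 95%, from the SE and the degrees of freedom of that fit. Ly6d entered the fit, but its calls are not used as results and enter only the counts over processing alternatives. CPM are the unrounded counts on TMM-scaled library sizes. Total counts of 17384956 to 24473502 put 3 counts at 0.127 to 0.167 CPM, the limit of detection used. The members and gene lists were chosen with earlier results of these data known. Named were all 6 members, Zeb2, up to 3 called genes of largest change per list and comparison with at least 1 log2 CPM, and the 3 genes of highest r per member with at least 3 log2 CPM. A gene that this rule names is not reported here. Sequences and positions came from RefSeq (GRCm38.p6) and GENCODE vM21. Other normalizations, tools, filters and subsets of libraries were tried. The tools were edgeR 4.0.16, DESeq2 1.42.0 and limma 3.58.1, run in R 4.3.3.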

Additional observations from a re-analysis of the deposited data

How the results depend on the processing

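Over 36 comparisons of single genes, 869 alternatives were run, of which 826 kept the direction and the side of the threshold. Of the rest, 23 lost a call, 11 gained a call and 9 turned direction. Counts here are over all 6 genes, Ly6d included, in the alternatives above and in the calls below. The filter took Ly6d in for its BM values, so its calls in comparisons with BM are no support. Between Mixed and WT it was called in 0 alternatives. The count of Ly6 genes called between Mixed and WT, 2, moved most. It became 4 with DESeq2, 4 with no filter on low counts, 1 with limma-voom, 1 with embryonic day as a covariate and 0 against a 1.5-fold change, and ran from 1 to 3 over the fits that left out a library. The count for BM over KO, 5, became 3 against a 1.5-fold change. All turns were of differences that had not passed. For Ly6c1 in Mixed over WT, the log2 difference was 0.41 when summed with Ly6c2, whose counts are nearly all of that sum. Alone, Ly6c1 was at 0.065 with embryonic day as a covariate. It ran from -0.365 to 0.106 over the fits that left out a library, above 0 without WT 1 or WT 2. For Ly6d in Mixed over WT it ran from -1.292, without Mixed 3, to 2.093, without WT 3. For Ly6g in BM over WT it was 0.131 with limma-voom, and -0.248 to 0.605 over the fits that left out a library, above 0 without BM 1 or WT 3. Apart from the summed pair, the cause of these moves was not tested. Of 18 pairs of libraries with the same number, 0 had deviations correlated over 0.1 (range -0.035 to 0.069), so the numbers were not taken to pair libraries. With a replicate block the counts called were 5 for KO over WT, 2 for Mixed over WT and 5 for BM over WT, as without it, and Ly6g in BM over WT was 0.004. Embryonic day cannot be told apart from genotype beyond what WT 1 allows, and depth limits Ly6d and Ly6g most.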
